A study of Mus musculus with 8 samples.

Results

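C498 is a small molecule that the study chose from a luciferase screen for loss of both JAK/STAT and NFκB reporter activity. The data described here are the effect of C498 on its own, in mouse peritoneal macrophages that received no LPS. The comparison took 4 of the 8 samples, 2 labelled C498 and 2 vehicle samples named NC, and asked what the compound does to resting macrophages. A gene was tested when its mean over the 8 samples reached 1 TPM (a level corrected for gene length and for the total of the sample), which kept 12189 of 55801 listed genes.

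NC cells were given DMSO and no LPS. C498 cells received 15 μM of the compound and no LPS, LPS cells received 100 ng/ml lipopolysaccharide for 4 h, and C498+LPS cells received 15 μM C498 for 0.5 h before the same LPS challenge. The methods give 1 schedule for all groups, which would put the compound on the C498-only cells for about as long as the LPS challenge ran, although the labels do not state their time. All cells came from mice injected with thioglycollate, which draws monocytes into the peritoneal cavity, and were harvested by flushing the cavity, a step that can carry over other peritoneal cells. Nothing in the labels says whether the samples of a group came from different mice or cultures, so each p-value below measures the spread between these samples only.

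JAK/STAT and NFκB signaling carry cytokine and microbial signals to the nucleus, and resting macrophages keep most of their target genes low until they are stimulated. Early response genes, such as those of the NR4A nuclear receptors, the FOS and JUN subunits of AP-1 and EGR1, need no new protein for their transcription and rise within minutes to hours of many stimuli, including growth factors, cAMP, stress and microbial products. Their RNAs are short-lived, and many of them encode transcription factors or brakes on the same signals.

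C498 alone raised far more genes than it lowered. With limma on log2(TPM + 1) values, 687 genes were called higher (5.64% of the tested genes) and 166 were called lower (1.36%), a call meaning an adjusted p of at most 0.05 and a change of at least 2-fold on that scale. NR4A receptors, AP-1 subunits, neutrophil-attracting chemokines, MAP kinase phosphatases, heat shock proteins and p53 target genes were among the risers, whereas receptors for formylated peptides and other myeloid surface proteins were among the genes that fell. Called genes that rose did so by a median ratio of 3.59 (quartiles 2.75 and 4.96), from a median of 3.31 TPM in NC to 12.2 TPM in C498. Those that fell did so by a median ratio of 2.71, from 16.5 to 5.72 TPM. The C498 and NC samples did not overlap in any of the 853 called genes, against 29.3% of all tested genes that were higher and 28.4% that were lower without overlap. The counts moved with single samples, to 1187 higher and 195 lower when NC replicate 1 was left out, 425 and 215 when NC replicate 2 was, 274 and 71 when C498 replicate 1 was, and 309 and 81 when C498 replicate 2 was.

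The C498 samples were shifted little as a whole. Over all tested genes the median log2 change was 0.01, the value that each list below is read against. Centring each sample on its median gene moved that median by -0.12 and the split of calls from 687 higher and 166 lower to 565 higher and 269 lower. The median gene of the NC samples stood at 4.03 and 3.71 on the log2 scale and that of the C498 samples at 4.00 and 3.99. Of the genes in the lists below that were called, 24 were not called after centring, and their changes lay between 1.00 and 1.19, so the calls near 2-fold turn on the scale. Of the called genes named below, Btg2, Ccl22, Cxcl12, Cxcl5, Cxcr4, Gbp5, Il1b, Il1rn, Irf4, Kdm3a, Pde4b, Rrm2, Rsad2, Sesn2, Slc2a1, Socs1, Sqstm1, Tgif1, Tiparp, Tnfrsf9, Vldlr, Zfp36l2 and Zmat3 were not called on the centred scale. The medians given below kept their sign on the centred scale. With 2 samples a group, an exact permutation test of a single gene cannot go below p = 0.333, so the calls rest on the spread that limma pools over all genes and all 8 samples.

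The promoters of 4 of the called genes named below are shown first. The letters around the start site are what these genes bring to the comparison besides their values. Each sequence is from RefSeq (GRCm38.p6), runs 5′ to 3′ on the strand of the gene, and has the motif named before it in capitals. The promoter of Nr4a1 (chr15:101266596-101266895, plus strand) reached from 250 bases before to 50 bases after the start and holds 4 copies of CGTCA, the short site that CREB and AP-1 family proteins can bind, searched on both strands.

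Nr4a1: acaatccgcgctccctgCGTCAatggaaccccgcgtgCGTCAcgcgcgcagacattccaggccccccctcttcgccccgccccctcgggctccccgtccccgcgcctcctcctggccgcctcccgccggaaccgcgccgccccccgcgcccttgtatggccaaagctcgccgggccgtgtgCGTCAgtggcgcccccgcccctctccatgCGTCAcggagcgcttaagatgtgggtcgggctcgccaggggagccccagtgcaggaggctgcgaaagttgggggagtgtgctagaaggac

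CGTCA occurred at least once in 20.8% of all 32851 promoter windows of this length, and at least 4 times in 0.231% of them. The promoter of Dusp1 (chr17:26508423-26508722, minus strand) holds the full cAMP response element TGACGTCA, which was in 1.79% of the windows.

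Dusp1: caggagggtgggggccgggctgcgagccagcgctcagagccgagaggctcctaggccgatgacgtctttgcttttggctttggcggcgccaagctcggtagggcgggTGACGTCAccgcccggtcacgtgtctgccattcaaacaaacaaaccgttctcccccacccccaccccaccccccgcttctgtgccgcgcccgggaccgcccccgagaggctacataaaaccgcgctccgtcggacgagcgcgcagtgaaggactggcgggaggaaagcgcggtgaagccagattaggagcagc

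A stretch of 100 bases of the Cxcl2 promoter (chr5:90903757-90903856, plus strand) holds an NFκB (κB) site, a pattern found in 4.51% of the windows.

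Cxcl2: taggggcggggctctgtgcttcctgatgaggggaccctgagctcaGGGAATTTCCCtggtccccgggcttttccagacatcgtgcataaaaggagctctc

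For the genes that fell, 100 bases of a promoter of Ly6c2 (chr15:75112026-75112125, minus strand) hold the letters GAGGAAGT, a form bound by the myeloid factor PU.1, which were in 3.2% of the windows.

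Ly6c2: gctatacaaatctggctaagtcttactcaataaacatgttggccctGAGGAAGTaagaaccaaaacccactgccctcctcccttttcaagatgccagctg

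These matches are letters only, and no binding was measured. A comparison of motif shares between called genes and all genes is void, since a promoter was matched for 67.1% of the genes called higher and 73.5% of those called lower.

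The 3 NR4A receptors, ligand-independent nuclear receptors that act as transcription factors, all rose. Nr4a1 stood at 0.97 and 1.27 TPM in the NC samples and at 105 and 104 TPM in the C498 samples, a ratio of means of 93.3 and a log2 change of 5.64 (SE 0.16, adjusted p = 1.08e-05). Nr4a2 went from 0.38 and 0.17 TPM to 24.1 and 24.1 TPM (log2 change 4.30, SE 0.64, adjusted p = 0.00656), and its call was lost in at least 1 fit that left out a sample. Nr4a3 went from 0.92 and 0.36 TPM to 12.2 and 12.9 TPM (log2 change 3.07, SE 0.21, adjusted p = 0.000273). All 3 were at or below 1.27 TPM in NC, and the C498 samples were close to each other.

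AP-1, the dimer of FOS, JUN, ATF and MAF family proteins, gave 9 of 12 tested members called higher and 1 called lower, with a median log2 change of 1.73. Fosb was at 0.06 and 0 TPM in NC and at 25.5 and 26.4 TPM in C498 (log2 change 4.71, SE 0.20, adjusted p = 3.94e-05). Fos, its relative, was already present in NC at 15.9 and 14.3 TPM and rose to 76.3 and 80.3 TPM. Jun went from 94.7 and 77.7 TPM to 320.4 and 275 TPM, and Junb from 160.3 and 175 TPM to 564 and 512 TPM. Atf3, a stress-inducible member that represses several cytokine genes, went from 227 and 225 TPM to 648 and 569 TPM. In contrast, Batf3, a factor best known from dendritic cells, fell from 12.8 and 12.7 TPM to 7.01 and 4.52 TPM (log2 change -1.04, SE 0.22, adjusted p = 0.0231). The C498 samples lay above both NC samples for every FOS and JUN gene named here and below both for Batf3.

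**Figure D1:**
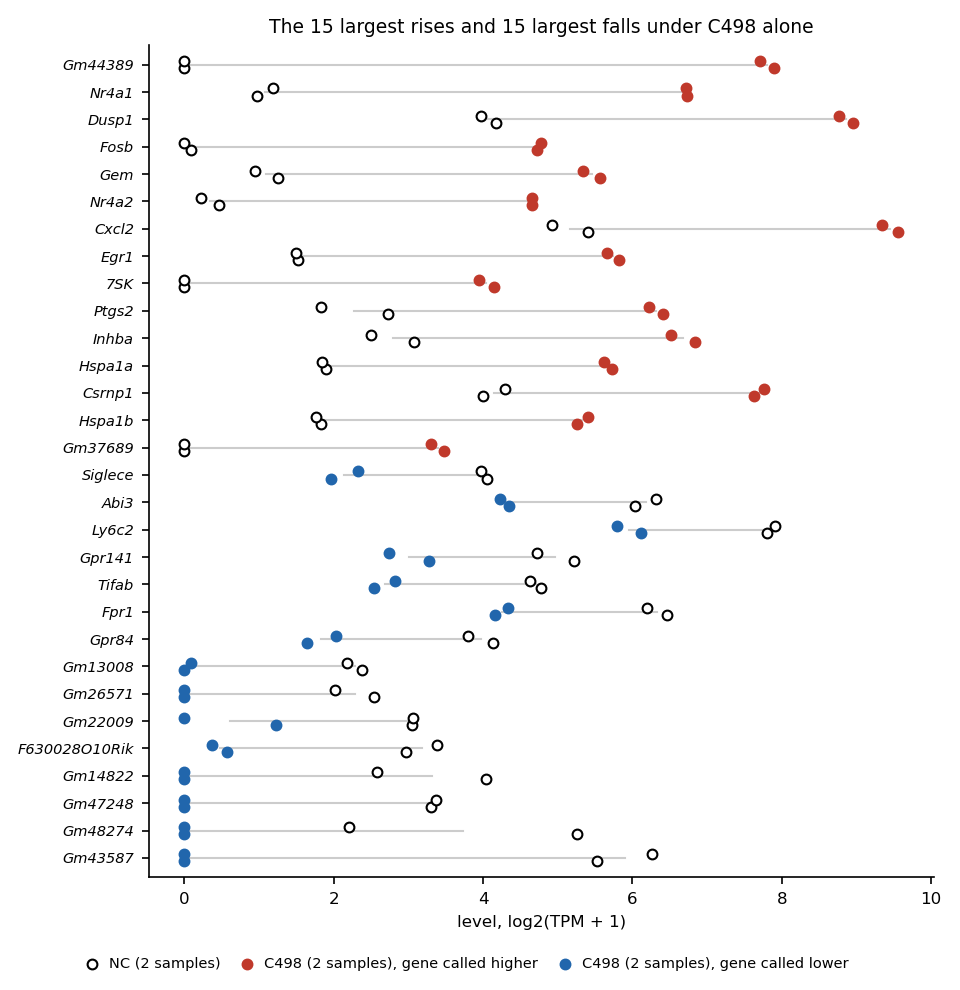
Levels of the named genes with the largest changes in each of the 4 samples, on a log2(TPM + 1) axis, with genes as rows, open circles for the 2 NC samples and filled circles for the 2 C498 samples. The circles of a group lie close together for most genes and those of NC and C498 do not overlap, with Nr4a1 at 0.97 and 1.27 TPM in NC and 105 and 104 TPM in C498.

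Of the other early response genes, 11 of 18 were called higher and none was called lower, with a median log2 change of 1.38. Egr1, a zinc finger factor induced by growth factors, went from 1.86 and 1.82 TPM to 55.5 and 49.7 TPM (log2 change 4.24, SE 0.13, adjusted p = 1.29e-05). Csrnp1, a nuclear protein induced by AXIN, went from 15.0 and 18.6 TPM to 198 and 216 TPM (log2 change 3.55, SE 0.16, adjusted p = 3.94e-05). Ier3, Klf4, Rgs1, Ier5, Rgs2, Egr2, Arc, Myc and Btg2 were the other called members, with log2 changes between 1.03 for Btg2 and 2.61 for Ier3. Gem, a small GTPase that inhibits calcium channels, ranked among the largest rises of all genes, from 1.38 and 0.93 TPM to 46.5 and 39.6 TPM (log2 change 4.36, SE 0.17, adjusted p = 3.31e-05).

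Genes that cAMP and CREB drive rose in part, with 5 of 14 called higher (Thbs1, Sik1, Crem, Per1 and Pde4b) and a median log2 change of 0.58. Sik1, a kinase that feeds back on CREB, went from 4.12 and 3.18 TPM to 21.8 TPM in both C498 samples. Crem, which encodes the repressor ICER as well as activators, went from 13.9 and 13.2 TPM to 48.3 and 43.7 TPM. Thbs1, encoding thrombospondin, differed between the NC samples, at 55.9 and 23.3 TPM, and stood at 219 and 215 TPM in C498.

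Phosphatases that switch off MAP kinases rose in part: 5 of 14 tested phosphatase and Sprouty genes were called higher, with a median log2 change of 0.83. Dusp1, which dephosphorylates p38 and JNK, went from 17.0 and 14.7 TPM to 496 and 435 TPM (log2 change 4.79, SE 0.14, adjusted p = 1.08e-05). Dusp5, Dusp10, Dusp2 and Dusp4 rose by 2.60, 2.37, 2.03 and 1.95 on the log2 scale. Brakes on cytokine RNA and on ubiquitin signaling included Zfp36 (tristetraprolin, which destabilizes Tnf RNA), from 35.3 and 31.1 TPM to 178 and 162 TPM, and Tnfaip3 (A20), from 33.0 and 22.5 TPM to 103 and 96.4 TPM. In that list, 3 of 12 tested genes were called higher, the other being Zfp36l2.

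Of 27 cytokine genes tested, 11 were called higher and 1, Tnfsf13b (BAFF, a B cell survival factor), was called lower. Il6 went from 1.05 and 1.80 TPM to 8.29 and 9.18 TPM (log2 change 2.02, SE 0.15, adjusted p = 0.000428), and Osm, a cytokine of the same family, from 4.55 and 4.71 TPM to 40.2 and 36.2 TPM. Lif, a further relative, went from 0.53 and 0.52 TPM to 9.20 and 12 TPM (log2 change 2.92). Tnf rose less, from 50.9 and 49.9 TPM to 116 and 107 TPM (log2 change 1.13, SE 0.10, adjusted p = 0.000787).

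Il1b and its antagonist gene Il1rn were just past the 2-fold limit, with log2 changes of 1.01 and 1.07, and were not called after centring, while Il1a (log2 change 0.98) stayed just under it. Ifng and Il17a, which encode cytokines made mainly by lymphocytes, rose as well, Ifng from 0.88 and 1.15 TPM to 12.7 and 14.7 TPM and Il17a from 0.68 and 0.20 TPM to 8.28 and 9.89 TPM. Of the T cell markers, the 3 Cd3 genes were at or below 1.13 TPM in all 4 samples, and the summed level of the 8 markers, nearly all of it Il7r, was 154 and 104 TPM in NC and 167 and 152 TPM in C498, with overlap. Which cells carried Ifng and Il17a was not tested.

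Cxcl2, which attracts neutrophils, was among the 15 largest rises. It went from 41.5 and 29.5 TPM to 755 and 646 TPM (log2 change 4.28, SE 0.17, adjusted p = 3.67e-05) and Cxcl1 from 12.7 and 12.1 TPM to 131 and 114 TPM (log2 change 3.20). Cxcl10, a T cell attractant under interferon and NFκB control, went from 23.5 and 26.6 TPM to 131 and 110.0 TPM, and Cxcl5 and Cxcl12 were called as well, so that 5 of 11 CXC chemokines rose. Among CC chemokines, 4 of 11 were called higher: Ccl3, Ccl4, Ccl7 and Ccl22. Ccl3 reached 1339 and 1135 TPM from 212 and 190 TPM, and Ccl4 reached 430 and 365 TPM from 61.1 and 67.2 TPM. Of the chemokine receptors, Ccrl2, Ccr7 and Cxcr4 were called higher of 5 tested.

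NFκB and JAK/STAT genes were followed as regulators of these cytokines and chemokines. In the NFκB list, 4 of 18 tested genes were called higher, with a median log2 change of 0.53 and 16 of 18 above 0. These were Tnfaip3, the IκB family genes Nfkbid and Nfkbiz, and the subunit gene Rel. Nfkbia, encoding IκBα, went from 175 and 148 TPM to 300.2 and 265 TPM, a log2 change of 0.81 (SE 0.11, adjusted p = 0.00567) that stayed under 2-fold. For JAK, STAT and SOCS genes the median log2 change was -0.04 and 4 of 26 were called higher, namely Pim1, Cish, Socs3 and Socs1. Socs3, the inhibitor of IL-6 family receptors, went from 65.5 and 61.8 TPM to 168 and 156 TPM (log2 change 1.34, SE 0.11, adjusted p = 0.000525). No JAK or STAT gene was called.

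Interferon-stimulated genes leaned the other way, with 24 of 33 below 0 and a median log2 change of -0.18. The list was split, since at limma's adjusted p without the fold limit 7 were higher and 10 lower. The called ones all rose: Iigp1, Cxcl10, Gbp5 and Rsad2. Iigp1, a GTPase that attacks pathogen vacuoles, went from 4.82 and 4.43 TPM to 30.1 and 23.3 TPM. Among those that did not reach 2-fold, Ifit3 stood at 248 and 240.5 TPM in NC and 132 and 151 TPM in C498 (log2 change -0.79, adjusted p = 0.00238), and Ifit1 at 121 and 92.7 TPM in NC and 65.4 and 64.3 TPM in C498. Toll-like receptors and their adaptors gave 1 call higher and 2 lower of 21, beside 5.64% higher and 1.36% lower of all tested genes. Of the 21, 13 were below 0, with a median log2 change of -0.28. Cd14, the LPS co-receptor, went from 235 and 252 TPM to 686 and 663 TPM, while Tlr1 fell from 21.9 and 17.4 TPM to 5.72 and 7.04 TPM and Tlr7 from 69.9 and 49.9 TPM to 28.9 and 24.9 TPM.

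**Figure D2:**
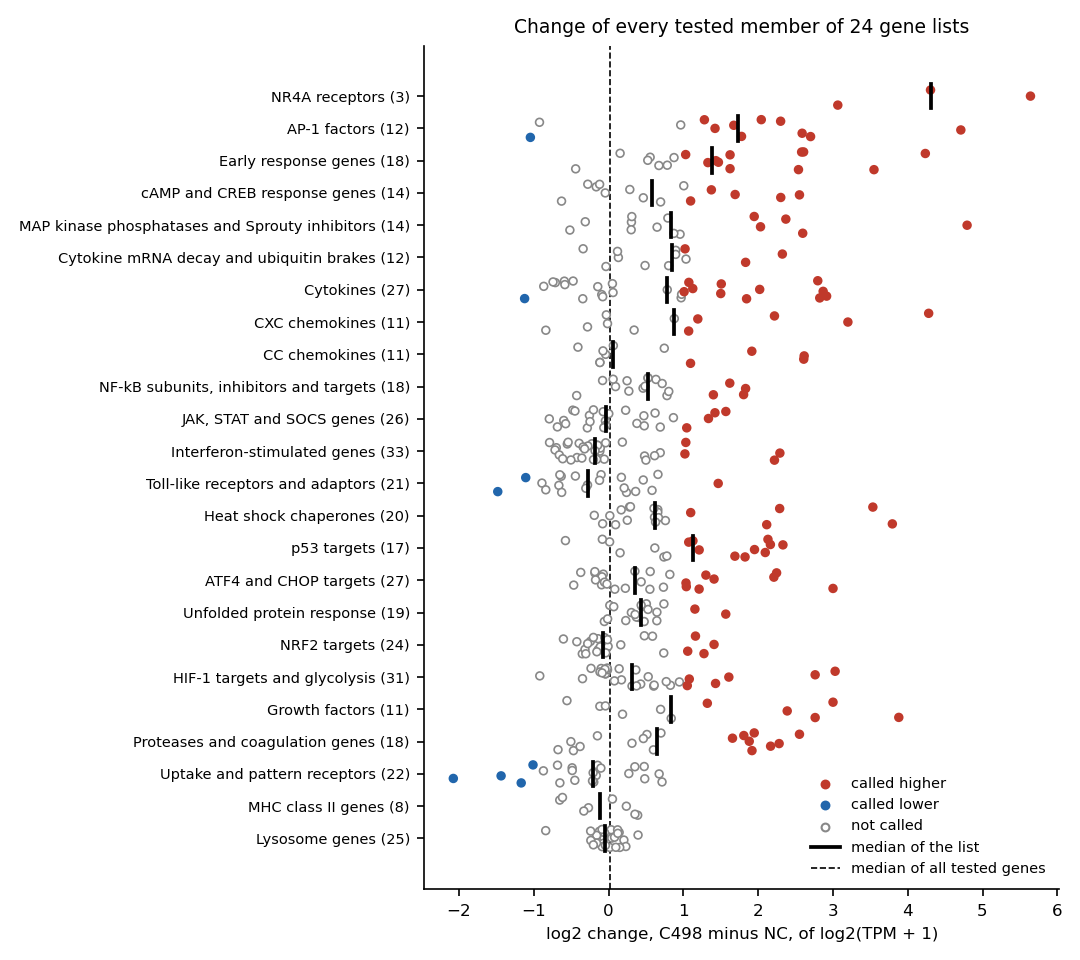
Log2 change (C498 minus NC, on the log2(TPM + 1) scale) of every tested member of 24 gene lists, with 1 dot a gene, filled where the gene was called and open where it was not, and a vertical bar at each list's median. The dashed line, at 0.01, marks the median over every tested gene, and the NR4A, AP-1 and p53 lists lie to its right with medians of 4.30, 1.73 and 1.13.

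Stress programs were followed in separate lists. Of the heat shock genes, 5 of 20 were called higher. Hspa1a, encoding inducible HSP70, went from 2.74 and 2.59 TPM to 51.8 and 47.9 TPM (log2 change 3.79, SE 0.16, adjusted p = 3.67e-05), and its near-identical copy Hspa1b from 2.54 and 2.4 TPM to 37.2 and 41.3 TPM. Because reads of these copies can be assigned to either, their separate levels are uncertain. The small heat shock protein genes Cryab and Hspb1 rose by 2.29 and 2.11 on the log2 scale. Constitutive Hspa8 stood at 854 and 906 TPM in NC and 1365 and 1315 TPM in C498 (log2 change 0.61), under the 2-fold limit.

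Of the p53 target genes, 10 of 17 were called higher, with a median log2 change of 1.13. Cdkn1a, the cell cycle inhibitor p21, went from 147 and 136 TPM to 551 and 547 TPM (log2 change 1.95, SE 0.08, adjusted p = 3.94e-05). Mdm2, which degrades p53, went from 78.6 and 55.6 TPM to 320 and 282 TPM. Gadd45b, Plk2, Plk3 and Phlda3 rose by 2.33, 2.13, 2.10 and 1.69 on the log2 scale, and Trp53inp1, Pmaip1, Ccng1 and Zmat3 were the other calls. Several of these genes, Gadd45b and Plk2 among them, also belong to the early response. Of 16 replication genes, only Rrm2 was called higher, a share near the 5.64% of all tested genes. Short of the 2-fold limit the list leaned up, with 15 of 16 above 0 and a median log2 change of 0.52. At limma's unadjusted p under 0.05, 9 were higher and 0 lower, against 17.4% and 14.6% of all tested genes.

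In the ATF4 and CHOP list, 8 of 27 genes were called higher, but Atf4 itself was not (log2 change 0.55). Gdf15, a stress cytokine, went from 37.4 and 41.4 TPM to 359 and 289 TPM (log2 change 3.0, SE 0.13, adjusted p = 3.94e-05), and Ppp1r15a, which restores translation after stress, from 32.8 and 25.6 TPM to 157 and 127 TPM. Ddit4, Slc7a11, Slc7a5, Stbd1, Sesn2 and Vldlr were the other calls. The unfolded protein response gave 2 of 19 called higher (10.5%, against 5.64% of all tested genes), the chaperone genes Hspa5 and Dnajb9. Of the 19, 17 were above 0, with a median log2 change of 0.44. At limma's adjusted p without the fold limit, 8 were higher and 0 lower. Of the NRF2 targets, 4 of 24 were called higher (Slc7a11, Txnrd1, Gclc and Sqstm1), with a list median of -0.08. Hmox1, the heme-degrading enzyme, stood at 818 and 728 TPM in NC and at 1349 and 1230 TPM in C498, a log2 change of 0.74 (adjusted p = 0.00445) under the 2-fold limit. Mt2 was the only called gene of 9 metallothioneins and metal transporters, at 31.2 and 47.8 TPM in NC and 143 and 153 TPM in C498.

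Of 31 genes of the HIF-1 and glycolysis list, 6 were called higher: Ndrg1, Vegfa, Adm, P4ha2, Kdm3a and Slc2a1. Ndrg1 went from 8.85 and 7.49 TPM to 72.0 and 75.4 TPM (log2 change 3.03) and Vegfa, the angiogenic growth factor, from 24.3 and 17.2 TPM to 145 and 144 TPM (log2 change 2.76). Fatty acid synthesis gave 4 of 11 called higher (Fads2, Scd1, Elovl6 and Fasn), and Fasn, the fatty acid synthase, went from 17.2 and 16.4 TPM to 37.9 and 42.1 TPM. Sterol synthesis gave 1 of 23, Insig1, and PPAR targets 1 of 13, Angptl4, both near the 5.64% of all tested genes.

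Enzymes of prostaglandin and leukotriene synthesis were called in both directions. Ptgs2 (cyclooxygenase-2, the inducible step to prostaglandins) went from 5.64 and 2.54 TPM to 83.8 and 73.8 TPM (log2 change 4.04, SE 0.28, adjusted p = 0.000309). Alox5 (5-lipoxygenase, the entry to leukotrienes) fell from 3.08 and 2.49 TPM to 0.95 and 0.67 TPM, and Ptges2 fell as well. Of 9 arginine, nitric oxide and itaconate enzymes, 4 were called higher, Nos2, Odc1 and Sat1 among them, beside 5.64% of all tested genes. Nos2, the inducible nitric oxide synthase, remained low, at 2.54 and 2.32 TPM in NC and 9.84 and 9.13 TPM in C498.

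Growth factors and proteases followed. Inhba, the activin A subunit, went from 7.45 and 4.68 TPM to 113 and 90.1 TPM (log2 change 3.88, SE 0.29, adjusted p = 0.000353), and with Vegfa, Gdf15, Hbegf and Ereg made 5 of 11 tested growth factors. Proteases and coagulation genes gave 8 of 18 called higher, among them Thbs1, Serpinb2, Mmp19, Timp1, Timp3, F3 and Plat. Serpinb2, a serpin that blocks plasminogen activators, went from 61.9 and 53 TPM to 261 TPM in both C498 samples. In the TGF-β list, 2 of 19 were called higher (Smad7 and Tgif1) and 2 lower (Tgfbi and Smad6), beside 5.64% higher and 1.36% lower of all tested genes. Tgfbi fell from 254 and 184 TPM to 88.2 and 85.7 TPM.

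Receptor genes of myeloid cells were among the genes that fell. Among uptake and pattern receptors, 4 of 22 were called lower and none higher, with 16 below 0 and a median log2 change of -0.21. Fpr1, a receptor for formylated bacterial peptides, fell from 87.1 and 72.0 TPM to 16.9 and 19.3 TPM (log2 change -2.08, SE 0.18, adjusted p = 0.000695). Its relative Fpr2 fell from 208 and 191 TPM to 77.5 and 68.6 TPM, and the complement receptor gene C5ar1 from 97.2 and 78.9 TPM to 36.5 and 40.4 TPM. Stab1, a scavenger receptor gene, was the fourth.

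Outside that list, the genes with the largest falls included Gpr84, a receptor for medium-chain fatty acids, from 16.5 and 13 TPM to 2.12 and 3.07 TPM (log2 change -2.13, SE 0.23, adjusted p = 0.0017). Ly6c2, a surface marker of inflammatory monocytes, fell from 222 and 240.1 TPM to 68.3 and 54.4 TPM (log2 change -1.90, SE 0.14, adjusted p = 0.000362). Siglece, an inhibitory sialic acid receptor, fell from 15.6 and 14.8 TPM to 2.90 and 3.99 TPM, and Abi3, an actin regulator, from 64.7 and 78.8 TPM to 19.4 and 17.7 TPM. Gpr141 and Tifab also fell, by 1.95 and 2.02 on the log2 scale. The long noncoding gene F630028O10Rik fell from 6.85 and 9.41 TPM to 0.49 and 0.29 TPM.

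Further called genes of this kind, chosen after their values were seen, were the C-type lectin genes Clec4a1, Clec4a2 and Clec4a3 (log2 changes -1.60, -1.59 and -1.19), Pilra (-1.47), P2ry6 (-1.58), Aif1 (-1.41), Pycard (-1.18) and Coro1a (-1.07). Coro1a, a leukocyte actin-binding protein, went from 210 and 245 TPM to 107 and 108 TPM, so abundant genes fell too. Spi1, which encodes PU.1, stood at 417 and 483 TPM in NC and 257 and 266 TPM in C498, a log2 change of -0.77 (SE 0.10, adjusted p = 0.00398) under the 2-fold limit.

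Smaller lists gave between 1 and 4 calls each, to be read beside the 5.64% of all tested genes called higher. Of 12 macrophage lineage factors, Bhlhe40 and Irf4 were called higher, and of 10 alternative activation markers, Tgm2, Ccl22 and Irf4 were. Costimulation genes gave Cd83 and Tnfrsf9 of 11, circadian genes Nr1d2, Per1 and Bhlhe40 of 9, and survival and apoptosis regulators Phlda1 of 21, which is below that share. Targets of SRF, MRTF and YAP gave Cyr61, Ctgf, Tagln and Vcl of 15, tubulins and microtubule proteins Tubb2b and Map1b of 16, targets of the aryl hydrocarbon receptor Ahr and Tiparp of 3, and the glucocorticoid response Klf9 of 4. Tubb2b, a neuronal β-tubulin, went from 2.60 and 2.48 TPM to 12.3 and 11.6 TPM, while the abundant Tubb2a stood at 138 and 140.0 TPM in NC and 101 and 104 TPM in C498.

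Several lists gave no call in limma, and for the short ones a count of 0 is close to the 5.64% higher and 1.36% lower of all tested genes. At an unadjusted p under 0.05, 17.4% of all tested genes were higher and 14.6% lower. None of 8 MHC class II genes was called, with 1 higher and 1 lower at that unadjusted p, and none of 12 MHC class I genes, with 0 and 2. Among 17 mitotic genes there were 0 calls, with 3 higher and 3 lower at that unadjusted p, and among 9 LXR targets 0 calls, with 1 and 2. The KEGG lysosome pathway (115 genes) gave 0 calls with 5 higher and 18 lower at the unadjusted p, oxidative phosphorylation (119 genes) 0 calls with 13 and 24, and glycolysis (39 genes) 0 calls with 3 and 8. In oxidative phosphorylation, 87 genes were below 0 and the median log2 change was -0.16.

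Some of the largest values belong to short transcripts. Gm44389, annotated as a processed pseudogene of 182 bases, was listed at 0 in both NC samples and at 237 and 207 TPM in C498, and Gm37689 and a 7SK copy were listed at 0 in NC and at 8.87 TPM or more in C498. In the other direction, Gm43587 and Gm48274 were listed at 0 in both C498 samples and at 45.2 and 75.8 TPM and at 37.1 and 3.63 TPM in NC, so the NC samples differed widely for the latter. Gm47248, Gm14822, Gm26571, Gm13008 and Gm22009 were also low or listed at 0 in C498. No fold is given where a group is listed at 0, since TPM values hold no read counts, and reads of a pseudogene cannot be told from those of its parent gene. Of the genes called, 36 that rose and 8 that fell were assembled by the authors without a symbol.

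Markers of other cells moved with the compound. The macrophage markers stayed dominant, with a summed level of 27400 and 28900 TPM in NC and 23300 and 23200 TPM in C498. Of the 12, Cd14 was called higher, none was called lower and 10 were below 0, Lyz2 (lysozyme) going from 15989 and 15984 TPM to 11415 and 11579 TPM at an adjusted p of 0.0235, under 2-fold. The 7 fibroblast markers summed to 192 and 150 TPM in NC and to 633 and 750 TPM in C498, and all 5 tested were called higher: Col1a1, Col3a1, Col1a2, Dcn and Pdgfra. Col1a1 (collagen type I) went from 77.5 and 53.9 TPM to 247 and 294 TPM (log2 change 2.04, SE 0.24, adjusted p = 0.0027), and Dcn (decorin) from 21.7 and 21.6 TPM to 84.3 and 93.3 TPM, while the markers Lum and Dpt were near 0.

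**Figure D3:**
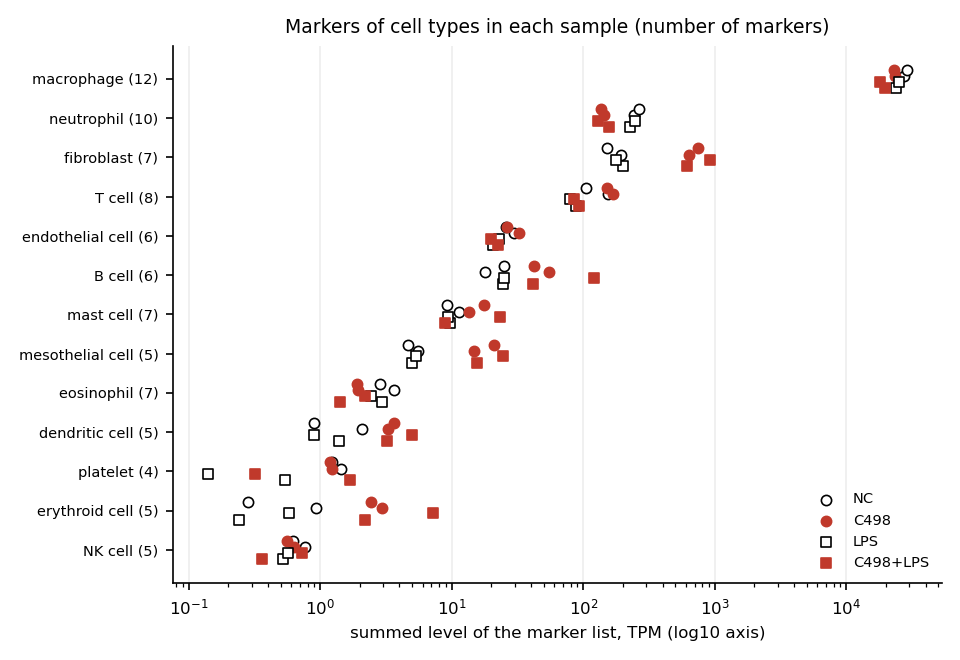
Summed TPM of each cell type's marker list in each of the 8 samples, on a log10 axis, with 1 row a list and colors and shapes for the 4 groups. The fibroblast sum is 192 and 150 TPM in NC and 633 and 750 TPM in C498, the mesothelial sum lies higher in C498 as well, the neutrophil sum lies lower, and the macrophage sum is at or above 18100 TPM in every sample.

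The 5 mesothelial markers summed to 5.58 and 4.66 TPM in NC and to 14.8 and 20.9 TPM in C498, with Wt1 and Krt19 called higher of 4 tested, both calls being lost in at least 1 fit that left out a sample. The 10 neutrophil markers summed to 244 and 263 TPM in NC and to 144 and 136 TPM in C498, with Retnlg called lower of 5 tested and the defining genes S100a9, Ly6g and Ngp listed at 0 in both NC samples. In C498, Ngp was listed at 0 in both, S100a9 stood at 0.66 and 0 TPM and Ly6g at 0 and 2.62 TPM. B cell markers, mostly Ighm, stood at 18.0 and 25 TPM in NC and 54.7 and 42.5 TPM in C498, and none of the 3 tested was called. Of 14 immunoglobulin variable segments, a group chosen after its values were seen, 3 were called higher, with a median log2 change of 0.815. Mast cell markers summed to 11.4 and 9.23 TPM in NC and 13.5 and 17.6 TPM in C498, and endothelial markers overlapped, at 29.5 and 25.6 TPM against 32.6 and 26.1 TPM. Sums of NK cell, eosinophil, dendritic cell, platelet and erythroid markers stayed at or below 4 TPM in all 4 samples. In bulk RNA, more cells of a type and more RNA per cell cannot be told apart, and the part of these cells in the results was not tested. The matrix genes move with the fibroblast markers: 14 of 39 genes of the KEGG ECM-receptor pathway were called higher (median log2 change 0.73), and so were 13 of 18 collagen genes, a group chosen after its values were seen. Genes of other lists that fibroblasts also express, such as Thbs1, Timp1, Timp3, Tagln, Cxcl12, Il33 and Ctgf, stand beside the same marker values.

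Levels also varied with transcript length. Between the NC samples, the median difference (replicate 1 minus replicate 2, log2) was -0.06 for the shortest of 4 length classes (65 to 1561 bases) and 0.52 for the longest (4106 to 27908 bases), whereas between the C498 samples it was -0.02 and 0.04. In the comparison of C498 with NC, 3.41% of the shortest and 8.01% of the longest class were called higher, and 1.8% and 0.722% were called lower. Of the 687 and 166 calls, 220 and 52 held in every fit that left out 1 of the 4 samples, and all kept their direction there. Of the 182 called genes named here, 108 held, Nr4a1, Dusp1, Fosb, Egr1, Cxcl2, Hspa1a, Cdkn1a, Fpr1 and Ly6c2 among them, and 74 lost their call in at least 1 such fit. Those lost were, of regulators and early response genes, Nr4a2, Batf3, Btg2, Arc, Egr2, Myc, Rgs2, Pde4b, Per1, Nr1d2, Klf9, Rel, Irf4, Ahr, Tiparp, Smad6, Smad7, Tgif1, Socs1 and Zfp36l2. Of cytokines, receptors and interferon or surface genes they were Il1b, Il1rn, Il33, Tnfsf13b, Ccl22, Cxcl5, Cxcl12, Ccr7, Cxcr4, Tnfrsf9, Gbp5, Rsad2, Tlr1, Tlr7, Stab1, Aif1, Pycard and Coro1a. Of stress and metabolic genes they were Ccng1, Pmaip1, Trp53inp1, Zmat3, Rrm2, Slc7a11, Stbd1, Sesn2, Vldlr, Txnrd1, Gclc, Mt2, Adm, P4ha2, Kdm3a, Elovl6, Insig1, Alox5 and Ptges2. The others were Ereg, Plat, Thbs1, Timp3, Tagln, Vcl, Pdgfra, Krt19, Wt1, Retnlg, MSTRG.19775 and the short transcripts 7SK, Gm14822, Gm26571, Gm37689, Gm43587 and Gm48274. Cyr61 and Ctgf, also named here as called, are not among the 182 counted, and both held their calls.

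Summed levels of RNA classes were followed as further signs of RNA state. The 13 mitochondrially encoded messenger RNAs summed to 22500 and 20400 TPM in NC and 29000 and 28300 TPM in C498, 12 of 13 were above 0 and none was called, with 9 higher at an unadjusted p under 0.05. Cytosolic ribosomal protein genes summed to 81600 and 101000 TPM in NC and 95800 and 98300 TPM in C498, with 1 of 78 called. Of 13 small nucleolar RNA host genes, 3 were called higher. Of 285 zinc finger (Zfp) genes, 4 were, a share below the 5.64% of all tested genes.

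Of 34 KEGG pathways followed, as annotated in the deposited table, the largest numbers of genes called higher were in PI3K-Akt signaling (36 of 210), cytokine-receptor interaction (34 of 133), MAPK signaling (33 of 196), TNF signaling (20 of 98), p53 signaling and JAK-STAT signaling (16 of 66 and 16 of 98), NFκB, FoxO and chemokine signaling (15 of 88, 15 of 105 and 15 of 136), ECM-receptor interaction (14 of 39) and TGF-β signaling (13 of 63). Each of these shares stands beside 5.64% of all tested genes, and the pathways share members. The ribosome (1 of 130), lysosome and oxidative phosphorylation pathways stood at or below 1 call higher.

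The same compound was also given before LPS, in 4 other samples. Their levels did not enter the changes above, but they shared in the gene filter and in the spread that limma pooled. The calls of the 2 comparisons are therefore not independent. In C498+LPS against LPS, 657 genes were called higher (5.39%) and 266 lower (2.18%). Of the 687 genes that C498 alone raised, 427 were called higher there too (62.2% of them, and 65% of the 657), none was called lower, and 655 were above 0. Of the 166 that fell, 68 were called lower there too (41% of them, and 25.6% of the 266), 1 was called higher, and 144 were below 0. The gene that changed direction, chosen after its values were seen, was an assembled locus without a symbol, MSTRG.19775, at 13.2 and 22.9 TPM in NC, 5.82 and 7.37 TPM in C498, 2.30 and 3.55 TPM in LPS and 17.1 and 21.9 TPM in C498+LPS. Across all tested genes, 50.8% were above 0 and 48.7% below 0 in that comparison. The median log2 change with LPS was 1.24 for the genes raised by C498 alone and -0.77 for those lowered. Without LPS these medians were 1.42 and -1.25, but the genes were chosen on those values, which selection enlarges, so no difference is read from the pairs. The count of 427 fell to 172 and 173 without either C498 sample (replicates 2 and 1), to 262 and 230 without LPS replicates 1 and 2, and to 244 without C498+LPS replicate 2, and the count of 68 to 44 without C498 replicate 1 and 45 without C498+LPS replicate 2.

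**Figure D4:**
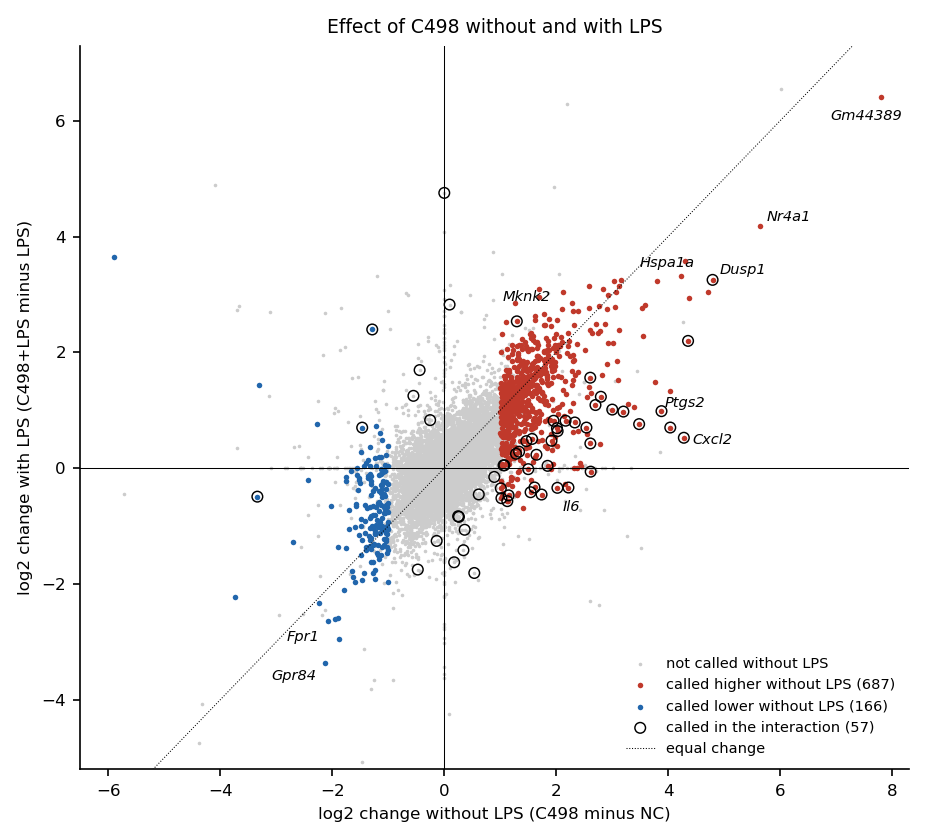
Log2 change by C498 without LPS (x axis, C498 minus NC) and with LPS (y axis, C498+LPS minus LPS), both on the log2(TPM + 1) scale, with 1 point a tested gene. Colored points are the 687 genes called higher and the 166 called lower without LPS, black rings are the genes called in the interaction of both treatments, and Cxcl2, Ptgs2 and Il6 lie near 0 on the y axis while Nr4a1, Dusp1 and Fpr1 do not.

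A test of the difference itself, the interaction of C498 and LPS, called 57 genes (0.468% of those tested), of which 48 were more negative with LPS, and 1351 genes stood at an unadjusted p under 0.05. This count was fragile: it was 9 and 13 without LPS replicates 1 and 2, 20 and 36 without C498 replicates 1 and 2, 23 and 32 without C498+LPS replicates 1 and 2, and 92 without NC replicate 1. Among the genes raised by C498 alone, 38 had a smaller change with LPS and 1, Mknk2, a larger one, a lean that their choice by the change without LPS favors, since the interaction subtracts that change. Cxcl2 had the largest difference of these: 4.28 without LPS and 0.52 with LPS (interaction -3.76), where LPS alone had already brought it to 2678 and 2680 TPM. Ptgs2 changed by 4.04 and 0.70 and Inhba by 3.88 and 0.98. For Il6, Tnf, Cxcl10, Ccl3 and Nos2 the change was above 0 without LPS and below 0 with it, at 2.02 and -0.34, 1.13 and -0.57, 2.22 and -0.34, 2.62 and -0.06, and 1.61 and -0.335. None of those values with LPS passed the 2-fold limit.

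Other genes were called in both settings. Nr4a1 rose to 42.8 and 49.8 TPM in C498+LPS from 1.44 and 1.79 TPM in LPS (log2 change 4.18), Egr1 by 3.32 and Hspa1a by 3.23, and the interaction did not pass its threshold for these, Nr4a1 coming closest (-1.47, adjusted p = 0.0504 in limma). Fpr1, Gpr84 and Ly6c2 fell by 2.64, 3.36 and 2.59 on the log2 scale with LPS, against 2.08, 2.13 and 1.90 without it. The fibroblast markers were also higher with the compound in that setting, with sums of 201 and 176 TPM in LPS and 618 and 911 TPM in C498+LPS.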

How the data were processed

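RNA of 8 samples (4 groups of 2) was sequenced. Per the labels and methods the authors used fastp for trimming, HISAT2 for alignment, StringTie for assembly and RSEM for quantification, and they deposited the TPM of each gene in each sample. TPM divides by gene length and scales each sample to the same total, so it keeps no depth, and sequencing depth is unknown. Tool versions, genome build and annotation are not given in the sources used here. The 4 columns of group means were not used.

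For the 12189 genes whose mean reached 1 TPM, limma 3.58.1 (R 4.3.3) was fitted to log2(TPM + 1) of all 8 samples, with 1 mean per group and a variance trend. A call needed an adjusted p (Benjamini-Hochberg) no higher than 0.05 and a change of 2-fold or more. Because the values are no counts, the authors' count test, DESeq2, was not run. Fold changes on this scale understate changes of low genes. Named genes are the 15 with a symbol and the largest rise and the 15 with the largest fall whose samples do not overlap, plus members of the gene lists, and others only where so stated. The members and the lists were chosen with earlier results of these data known. On simulated data of 12189 genes for C498 against NC, 159 of 200 changed genes were recovered, 71% of those changed by 1.5 and 88% of those changed by 2.5 on the log2 scale, with 2 false calls. The simulated noise was drawn for each gene separately and held no shift with transcript length, such as the NC samples show. The false calls therefore do not measure errors from such shifts. The 17 alternatives tried are given in the closing section.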

Additional observations from a re-analysis of the deposited data

Results flagged for a closer look

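For 30 genes named in the report, with values above 0 in every group, the change under C498 differed between cells without and with LPS in limma's test of the interaction (adjusted p between 0.0031 and 0.0492). The value in brackets is the change with LPS minus the change without it on the log2 scale, and a negative value means that the change under C498 was more negative with LPS. Among chemokines these were Cxcl2 (-3.76), Ccl3 (-2.68), Cxcl10 (-2.55), Cxcl1 (-2.22), Ccl4 (-2.18) and Ccl7 (-1.44). Among cytokines and secreted factors they were Il6 (-2.36), Tnf (-1.70), Osm (-1.57), Il1b (-1.36), Il1rn (-1.03), Inhba (-2.90) and Gdf15 (-1.99). Receptor and signaling genes were Ccrl2 (-1.39), Cd14 (-1.0), Socs3 (-1.05) and Pim1 (-1.07), and enzymes and an antiviral effector were Ptgs2 (-3.34), Nos2 (-1.95) and Rsad2 (-1.54). Early response, stress and protease inhibitor genes were Dusp1 (-1.54), Gem (-2.16), Rgs1 (-1.84), Gadd45b (-1.54), Cdkn1a (-1.13), Ier3 (-1.05), Serpinb2 (-1.35) and Sqstm1 (-1.01).

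Mknk2, a kinase downstream of MAP kinases, went the other way, with a larger rise with LPS (1.24). The assembled locus MSTRG.19775 (3.68) changed by -1.29 without LPS and 2.39 with it. Gm47248 was called in this test as well (adjusted p = 0.0214) and, being listed at 0 in both C498 samples, is given by its levels only: 8.90 and 9.35 TPM in NC, 9.82 and 10.7 TPM in LPS and 8.81 and 5.48 TPM in C498+LPS. The number of genes that this test called went from 57 to 9 without LPS replicate 1 and to 12 without the variance trend. Groups of 2 samples allow no check for single outlying samples.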

How the results depend on the processing

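The counts of calls, the median change, the counts of the gene lists and the changes of named genes were recomputed under 17 alternatives. Of these, 8 left out 1 sample. Marker sums, length classes, promoter shares and KEGG counts were not recomputed. Of 108 counts of list members called, 33 shifted clearly without the fold threshold, 25 when only C498 and NC were fitted and 11 after centring. The 687 genes higher under C498 alone became 452 with a minimum mean of 5 TPM, 306 when only C498 and NC were fitted, and 1132 without the fold threshold, and lay between 274 and 1187 with 1 sample left out. The 166 genes lower became 269 after centring, 266 after quantile normalization, 73 when only C498 and NC were fitted and 754 without the fold threshold, and lay between 71 and 215 with 1 sample left out. The 427 genes higher with and without LPS became 275 with a minimum of 5 TPM, 199 when only the groups compared were fitted and 707 without the fold threshold (172 to 448 with 1 sample left out). The 68 genes lower in both became 103 after centring, 38 when only the groups compared were fitted and 396 without the fold threshold (44 to 80). The 57 interaction calls became 18 without a filter and 12 without a variance trend (9 to 92). The cause of these differences was not tested. The median change of all genes lay between -0.0752 and 0.124 with 1 sample left out. With the replicate number as a block, 740 genes were higher, 187 lower and 84 called in the interaction. Replicate differences of NC and C498 correlated across 12189 genes at r = 0.135 and those of the other group pairs at 0.0397 to 0.168, not all above 0.1, so replicates were taken to share only a number. None of the 194 genes named changed direction under an alternative that tested it (171 were tested at the minimum of 5 TPM), but 68 and 62 lost their call without C498 replicates 1 and 2, 44 without NC replicate 2, 59 when only C498 and NC were fitted, 28 without a filter and 23 after centring. Cyr61 and Ctgf were not among the 194 genes. Depth is unknown, and 2 samples a group limit the precision.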
